A study of Mus musculus with 8 samples.

Results

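Mitochondria draw fuel for respiration from pyruvate and from fatty acids, and 36 genes that encode the enzymes of these routes were examined in myeloid cells sorted from mouse brain tumors. The 36 were taken by gene name from a table of 55450 genes, and all 36 were found and passed the filter on low counts. Of them, 23 serve pyruvate entry and the tricarboxylic acid (TCA) cycle and 13 serve fatty acid oxidation. The libraries were 3 of microglia, the resident macrophages of the brain, and 5 of bone marrow-derived macrophages (BMDM), which descend from blood monocytes. All 8 came from wild type (WT) mice that carried GL261 tumors, made by placing cells of this mouse glioma line in the brain. The gate for both was F4/80+, CD11b+, Ly6G- and Ly6C low or negative, after which CD45 low cells with low or no CD49d were taken as microglia, and CD45+ cells with high CD49d as BMDM. The labels give no age and do not say whether a library is 1 mouse or a pool, so the p-values measure only the spread between these libraries. The study asks how macrophages suppress immunity in such tumors, and sets the transcriptomes of the 2 populations side by side.

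In the TCA cycle, acetyl-CoA from pyruvate or fat joins oxaloacetate to form citrate, and a ring of dehydrogenases passes the electrons on to the respiratory chain. Long fatty acids enter the mitochondrion as carnitine esters and are cut to acetyl-CoA in repeated rounds of beta-oxidation. In cultured macrophages, inflammatory activation is known for breaks in the cycle at isocitrate dehydrogenase and succinate dehydrogenase, and alternative activation for a reliance on oxidation.

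Levels below are CPM values, which are counts scaled to library size with TMM factors. A difference is the log2 fold change of BMDM minus microglia, with its standard error (SE). Library totals ran from 5890406 to 16659154 counts, and the 36 genes together held 5116 to 19066 of them. Of 12 microglia markers 8 were called lower in BMDM, and their summed level was 2866 to 8313 CPM in microglia and 799 to 1971 in BMDM. Of 12 markers of monocyte-derived macrophages 9 were called higher, and their sum was 484 to 839 and 1400 to 4140 CPM. These include Itga4, which encodes CD49d and so was set by the gate. They also include Ly6c2, although the gate for both populations took Ly6C low or negative cells. Ly6c2 was at 5.70 (adjusted p = 0.00356, SE 0.87), with 1.45 to 9.10 CPM in microglia and 61.1 to 391 in BMDM. Vim was at 0.10 and Fn1 at -0.50 (-0.92 with BMDM 1 to 3 alone, where every BMDM library was below microglia), and neither was called. Among other cell types, the summed markers of T and NK cells (10 of 10 detected) were at 4.45 to 23.9 CPM in microglia and 30.5 to 231 in BMDM. Neutrophil markers (9 of 10 detected in microglia, with Ly6g at 0, and 10 of 10 in BMDM) were at 37.7 to 41.6 and 60.5 to 118 CPM. In microglia the sum was mostly from Csf3r (24.4 to 34.4 CPM, against 5.33 to 16.0 in BMDM). Of the 7 tested 6 had a positive value and 1, Csf3r, a negative one, and S100a8 was called higher at 4.04 (adjusted p = 0.0222, SE 0.85). Dendritic cell markers (7 of 8 detected in microglia, with Cd209a at 0, and 8 of 8 in BMDM) were at 310 to 375 CPM in microglia, 735 to 1598 in BMDM 1 to 4 and 363 in BMDM 5, mostly from Bst2, and Ccr7 was called higher at 6.15 (adjusted p = 0.0346, SE 1.39). Astrocyte markers (8 of 8) were at 102 to 167 and 29.7 to 58.6 CPM, mostly from Slc1a3 in microglia (84.6 to 134 CPM, against 0 to 15.05 in BMDM), and of the 6 tested 4 had a positive and 2 a negative value. The endothelial markers (8 of 8 in microglia, 7 of 8 in BMDM, with Tek at 0) were at 34.7 to 61.5 and 66.4 to 81.5 CPM. Oligodendrocyte markers (8 of 8) were at 124 to 259 and 97.1 to 151 CPM, and of the 7 tested 4 had a positive and 3 a negative value. B cell markers (7 of 8 detected in microglia, with Cd79a at 0, and 8 of 8 in BMDM) were at 29.5 to 94.1 and 10.1 to 74.5 CPM, mostly from Ighm in microglia (20.8 to 82.2 CPM). Of the 4 tested 2 had a positive and 2 a negative value. Ighm was at -1.96 (adjusted p = 0.29, SE 0.81) and Igkc at 4.84 (adjusted p = 0.0512, SE 1.18). Neuron markers (8 of 8) were at 44.1 to 81.3 and 28.5 to 59.7 CPM. Of the 7 tested 4 had a positive and 3 a negative value, with Rbfox3 at 1.26 and Map2 at -2.00, neither called with all libraries. The part of these cells in the values below was not tested, and in sorted bulk samples fewer cells of a type and less RNA per cell cannot be told apart.

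BMDM 4 and BMDM 5 stood apart from BMDM 1 to 3. Gm42418, a gene model over ribosomal RNA, took 41.2% and 48.9% of their counts, against 14.8% to 19.8% in BMDM 1 to 3 and 34.0% to 47.0% in microglia. Among genes expected at 20 or more counts from the other BMDM libraries, 22.1% in BMDM 4 and 21.9% in BMDM 5 were more than 4-fold below the median of those libraries, against 3.21% to 5.51% in BMDM 1 to 3. Of the enzyme genes, Acaa2, Dld, Eci1, Hadhb and Sdhc were that low in BMDM 4 (5 of 33), and Idh2, Idh3b, Sdhb, Sdhc, Suclg1 and Suclg2 in BMDM 5 (6 of 35). The main results are therefore also given with BMDM 1 to 3 alone. Microglia 3, which that fit keeps, was at 10.2% by the same measure within microglia, against 4.21% and 3.15% in microglia 1 and 2. Of the 36 enzyme genes 0 were that low in it. At equal depth 17333 genes were detected in microglia 3, against 21902 and 20541 in microglia 1 and 2. In that fit the groups do not overlap in their share of Gm42418, nor in that of ribosomal protein genes (6.24% to 9.59% of counts against 1.52% to 3.32% in microglia, with BMDM 4 at 2.79% and BMDM 5 at 1.88%), and the part of either in the added calls was not tested.

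No gene of the 36 passed the test with all libraries. By edgeR's quasi-likelihood test, with p-values adjusted over 16467 genes by Benjamini-Hochberg, 0 were higher and 0 lower in BMDM, where 1.11% of all genes were called higher and 0.814% lower. At an unadjusted p under 0.05, 4 were higher (Mpc2, Sdha, Sdhb and Acadvl), where 6.49% of all genes were, and 2 lower (Idh3a and Idh3g), where 7.27% were. DESeq2 called 2 higher, Sdha and Acadvl (3.65% of all genes), and 1 lower, Idh3g (1.90%). Limma-voom called 0 (0.856% of all genes higher and 1.52% lower). The groups had no overlap between libraries in 6 of 36: Sucla2, Sdha and Acadvl lay above microglia (4.32% of all genes), and Idh3a, Idh3g and Eci1 below (8.66%). Without BMDM 5, edgeR called 2 higher, Sdhb and Suclg1 (adjusted p = 0.0349 and 0.0458), where 3.38% of all genes were called higher, and 2 lower, Idh3a and Idh3g (adjusted p = 0.0218 and 0.023), where 3.79% were called lower.

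With BMDM 1 to 3 alone, edgeR called 6 of the 36 higher, Mpc2, Suclg1, Sdha, Sdhb, Sdhc and Acadvl, where 6.35% of all genes were called higher. It called 3 lower, Idh3a, Idh3g and Eci1, where 8.11% were called lower. These shares are over all genes tested, whose median SE with all libraries was 0.85, against 0.47 for the 36. The part of this in the added calls was not tested. BMDM 1 to 3 did not overlap microglia in 14 of the 36, 9 above and 5 below. Over all 16467 genes this held for 6462, 3226 above and 3236 below, so it was common among genes of any kind. By step, 4 of the 7 genes from succinyl-CoA to fumarate were called higher in the fit with BMDM 1 to 3 alone. So were 1 of the 6 of pyruvate entry and 1 of the 6 of acyl-CoA dehydrogenation and electron transfer. Called lower were 2 of the 7 from citrate to succinyl-CoA and 1 of the 5 of the later beta-oxidation steps. The 3 genes from fumarate to oxaloacetate and the 2 of carnitine entry had 0 calls.

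The median log2 fold change of the 36 was -0.14, against 0.08 for all genes tested. The 23 pyruvate and TCA genes had a median of -0.08 with 11 positive values, and the 13 fatty acid oxidation genes a median of -0.41 with 3 positive values. The median of the 23 was 0.17 with BMDM 1 to 3 alone, with 12 positive values, and that of the 13 was -0.13. Summed over the 23, the level was 633 to 710 CPM in microglia, 763 to 922 in the first 3 BMDM libraries and 609 and 515 in the others. Summed over the 13, it was 281 to 292 CPM in microglia and 255, 263, 224, 205 and 282 in BMDM 1 to 5. Both sums overlapped between the groups: for the 23 the first 3 BMDM libraries were above microglia and the others below, and for the 13 every BMDM library but BMDM 5 was below. The 95% interval of the difference stayed within 1 log2 unit in either direction for 5 of the 36, Mdh1, Mdh2, Cpt1a, Acadm and Hadha. For the other 31 it reached further, so the lack of a call does not show equal levels.

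**Figure D1:**
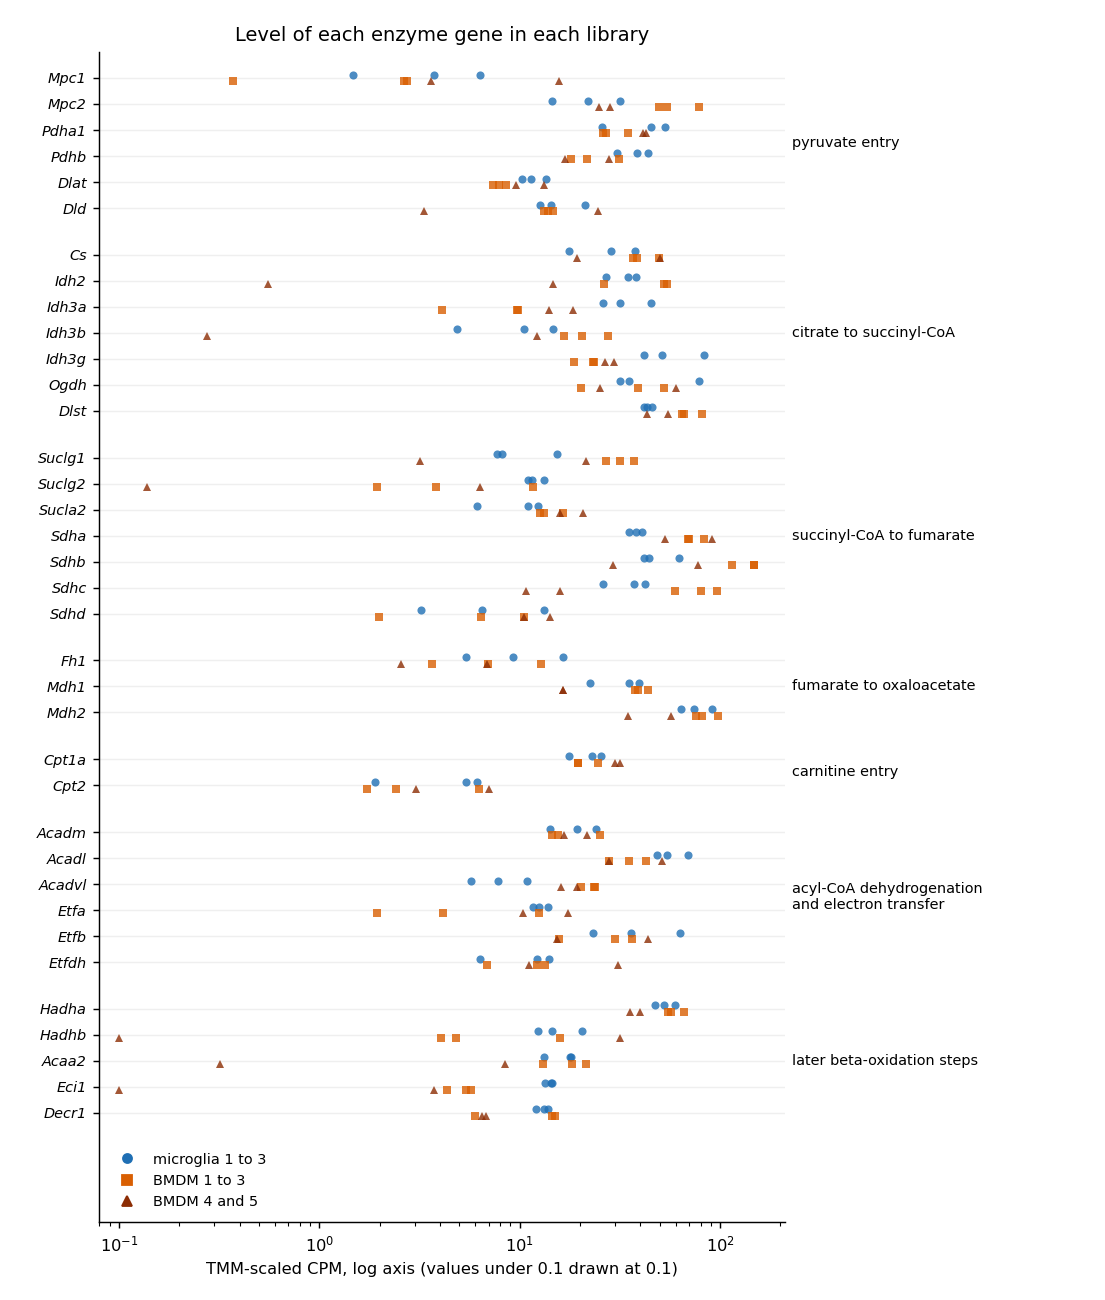
Level of each of the 36 genes in each library, as TMM-scaled CPM on a log axis with values under 0.1 drawn at 0.1, ordered by step of the pathway; circles are microglia 1 to 3, squares BMDM 1 to 3 and triangles BMDM 4 and 5. A triangle lies far to the left for Idh2, Idh3b, Suclg2, Hadhb, Acaa2 and Eci1, and the Idh3a, Idh3g and Eci1 circles lie to the right of every BMDM point.

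Pyruvate enters the mitochondrion through a carrier of 2 subunits, encoded by Mpc1 and Mpc2, and is turned into acetyl-CoA by the pyruvate dehydrogenase complex. Mpc2 (chromosome 1, 165460637 to 165481214, GRCm38) was at 31.8, 22.03 and 14.5 CPM in microglia 1 to 3. In BMDM 1 to 5 it was at 49.5, 78.7, 54.2, 24.8 and 28.3 CPM. BMDM 1 to 3 lay above every microglia library, while BMDM 4 and BMDM 5 lay within their range. The difference in Mpc2 was 1.05 (adjusted p = 0.301, SE 0.44) with all libraries and 1.42 (adjusted p = 0.0194, SE 0.34) with BMDM 1 to 3 alone. Mpc1 was at 1.47, 3.72 and 6.34 CPM in microglia and at 2.66, 0.369, 2.75, 15.8 and 3.59 CPM in BMDM. BMDM 4 alone stood above microglia, and the difference of 0.39 (adjusted p = 0.944, SE 1.14) became -0.96 (adjusted p = 0.56, SE 1.00) with BMDM 1 to 3 alone.

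The dehydrogenase complex has 3 catalytic parts: E1 (Pdha1 and Pdhb), E2 (Dlat) and E3 (Dld), the last shared with the 2-oxoglutarate dehydrogenase complex. All 4 genes had a negative value with all libraries and with BMDM 1 to 3 alone, and none was called in either fit. Pdhb had the largest with all libraries, at -0.71 (adjusted p = 0.413, SE 0.36), from 37.7 ± 6.62 CPM (SD, n = 3) in microglia to 23.1 ± 6.22 (n = 5) in BMDM. Pdha1, Dlat and Dld were at -0.28, -0.33 and -0.20. Libraries of the 4 genes overlapped between the groups, and Dld ranged from 3.34 CPM in BMDM 4 to 24.6 in BMDM 5. The cycle's entry enzyme, citrate synthase (Cs), was at 0.47 (adjusted p = 0.726, SE 0.40), with 17.7 to 37.9 CPM in microglia and 19.3 to 50.03 in BMDM.

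**Figure D2:**
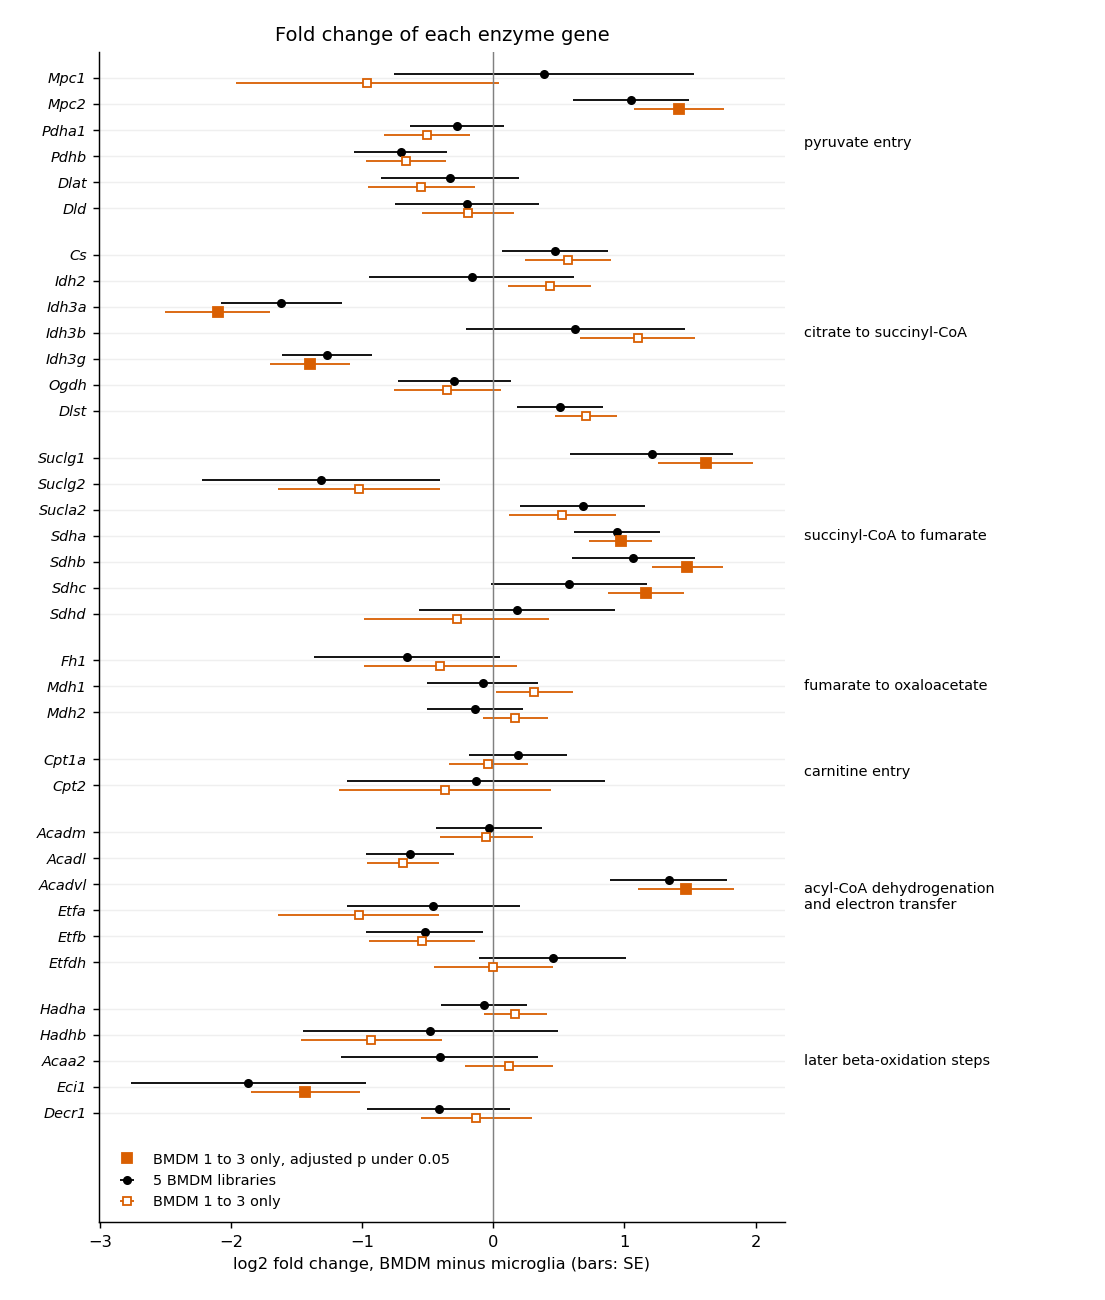
Log2 fold change of BMDM minus microglia for each of the 36 genes, with bars of 1 SE; black circles use all 5 BMDM libraries and orange squares BMDM 1 to 3 alone, filled where the adjusted p was under 0.05. The 9 filled squares are 6 on the right, Mpc2, Suclg1, Sdha, Sdhb, Sdhc and Acadvl, and 3 on the left, Idh3a, Idh3g and Eci1.

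Isocitrate is oxidized to 2-oxoglutarate by the NAD-dependent isocitrate dehydrogenase, which is built from a catalytic subunit, Idh3a, and the subunits Idh3b and Idh3g, or by the NADP-dependent Idh2. Idh3a (chromosome 9, 54586334 to 54604661) was at 31.8, 26.1 and 45.2 CPM in microglia and at 9.85, 9.73, 4.12, 14.01 and 18.4 CPM in BMDM. Idh3g (chromosome X, 73778963 to 73786897) was at 51.5, 41.6 and 82.9 CPM in microglia and at 18.8, 23.6, 23.2, 26.6 and 29.4 CPM in BMDM. For both genes every BMDM library, BMDM 4 and BMDM 5 included, lay below every microglia library. The difference in Idh3a was -1.62 (adjusted p = 0.1, SE 0.46), or 3.07-fold higher in microglia. For Idh3g it was -1.27 (adjusted p = 0.0804, SE 0.34), or 2.41-fold. With BMDM 1 to 3 alone both were called lower, Idh3a at -2.10 (adjusted p = 0.0069, SE 0.40) and Idh3g at -1.40 (adjusted p = 0.0121, SE 0.30).

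The value of the third subunit had the opposite sign. Idh3b was at 14.6, 10.5 and 4.89 CPM in microglia and at 20.4, 16.7, 27.6, 12.3 and 0.276 CPM in BMDM. BMDM 1 to 3 were above every microglia library, and BMDM 5 held 2 counts. The difference in Idh3b was 0.63 (adjusted p = 0.846, SE 0.83), or 1.10 (adjusted p = 0.117, SE 0.44) with BMDM 1 to 3 alone, so it was not called in either fit. By limma-voom it was -0.19. Exons of Idh3b share 5 bases with Nop56 on the opposite strand.

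The start regions of Idh3b and Idh3g, subunits of 1 enzyme whose values had opposite signs, are shown from the RefSeq promoter table (GRCm38.p6), in which 32 of the 36 genes were matched, all but Idh3a, Sdhc, Acaa2 and Decr1. Both are on the minus strand, written 5′ to 3′ toward the gene and ended where the GENCODE gene begins, at chr2:130284548-130284701 for Idh3b (154 bases, with 1 CpG) and chrX:73786898-73787147 for Idh3g (250 bases, with 24 CpG). The Idh3b window reached into the GENCODE gene and was cut there, and the bases left out hold further CpG. The CpG counts are therefore over stretches of unlike length and are not compared. Capitals mark CCGGAAG, the core of the motif of the ETS factor GABP, searched on both strands.
Idh3b: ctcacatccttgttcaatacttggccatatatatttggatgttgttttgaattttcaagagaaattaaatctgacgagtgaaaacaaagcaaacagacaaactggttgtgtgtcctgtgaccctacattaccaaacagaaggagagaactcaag
Idh3g: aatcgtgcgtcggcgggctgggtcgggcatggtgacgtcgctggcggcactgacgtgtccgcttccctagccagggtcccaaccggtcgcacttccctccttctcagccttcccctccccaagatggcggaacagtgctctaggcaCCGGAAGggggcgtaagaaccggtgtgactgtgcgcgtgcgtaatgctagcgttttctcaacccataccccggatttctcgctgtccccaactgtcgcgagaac
In windows of 250 bases before the start, CCGGAAG was found for 4 of the 32 genes, Cpt2, Idh3g, Mpc1 and Sdhd (12.5%), and for 7.83% of 27025 genes. The NRF1 motif, TGCGC preceded by its own reverse complement, was found for 1, Etfdh (3.12%, against 0.877% of all genes). TCAAGGTCA, the motif of estrogen-related receptors, was found for 0 (0.422% of all genes). The motif of PPAR with RXR, AGGTCA repeated after 1 base, shares these letters in part and was also found for 0 (0.0407% of all genes). Each was searched on both strands, and no window of the 32 held more than 1 of the 4 motifs. A match is a run of letters, not a shown binding site.

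Mitochondrial Idh2 was at 34.9, 27.1 and 38.05 CPM in microglia and at 26.5, 54.4, 52.3, 14.6 and 0.553 CPM in BMDM, the last from 4 counts. Its difference was -0.17 (adjusted p = 0.967, SE 0.78), or 0.43 (adjusted p = 0.399, SE 0.32) with BMDM 1 to 3 alone, and it was called in neither fit. The log2 ratio of Idh3a to Idh2 counts within a library was -0.13, -0.05 and 0.25 in microglia and -1.42, -2.48, -3.65, -0.06 and 4.89 in BMDM. BMDM 1 to 3 were below the microglia range, BMDM 4 within it and BMDM 5 above, with a mean difference of -0.57 and an exact two-sided permutation p of 0.821 (0.929 after adjustment over 6 such ratios).

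The 2-oxoglutarate dehydrogenase complex follows, with Ogdh as its E1 and Dlst as its E2. Ogdh was at -0.30 (adjusted p = 0.862, SE 0.43). Microglia 3 held 78.3 CPM of it, against 31.6 in microglia 1 and 35.1 in microglia 2, and leaving microglia 3 out gave 0.17. Dlst was at 46.00, 41.9 and 43.1 CPM in microglia and at 66.2, 64.8, 81.1, 55.1 and 43.4 CPM in BMDM. BMDM 1 to 4 exceeded every microglia library in Dlst and BMDM 5 was within their range, for a difference of 0.51 (adjusted p = 0.577, SE 0.33).

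Succinyl-CoA synthetase joins Suclg1, its common subunit, to either Sucla2, which makes the ATP-forming enzyme, or Suclg2, which makes the GTP-forming one. Suclg1 (chromosome 6, 73248382 to 73276911) was at 15.4, 7.74 and 8.12 CPM in microglia and at 26.9, 37.4, 31.8, 21.3 and 3.18 CPM in BMDM. All BMDM libraries but BMDM 5 were above microglia, and the difference over all libraries was 1.21 (adjusted p = 0.426, SE 0.62). Suclg1 was called higher with BMDM 1 to 3 alone, at 1.62 (adjusted p = 0.0144, SE 0.36).

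The partner subunits had values of opposite sign. Sucla2 was at 12.3, 10.96 and 6.12 CPM in microglia and at 13.2, 16.5, 12.6, 20.7 and 15.9 CPM in BMDM. Suclg2 was at 10.99, 13.3 and 11.6 CPM in microglia and at 11.7, 3.82, 1.94, 6.37 and 0.138 CPM in BMDM, the last from 1 count. The groups did not overlap in Sucla2, and in Suclg2 BMDM 1 alone lay within the microglia range. Neither was called: Sucla2 was at 0.68 (adjusted p = 0.621, SE 0.48), and for Suclg2 the value was -1.32 (adjusted p = 0.615, SE 0.91). The within-library log2 ratio of Sucla2 to Suclg2 counts was 0.16, -0.28 and -0.91 in microglia and 0.17, 2.09, 2.66, 1.69 and 6.27 in BMDM. It was higher in every BMDM library than in any microglia library, BMDM 1 by the least. The mean difference was 2.92, with an exact two-sided permutation p of 0.0714 and 0.214 after adjustment.

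Succinate dehydrogenase oxidizes succinate to fumarate and is also complex II of the respiratory chain. Sdha carries the flavin and the active site, Sdhb the iron-sulfur clusters, and Sdhc and Sdhd anchor the enzyme in the membrane. Sdha (chromosome 13, 74322254 to 74350280) was at 38.3, 41.03 and 35.2 CPM in microglia and at 83.2, 70.4, 69.2, 53.2 and 90.8 CPM in BMDM. Every BMDM library was above every microglia library. The difference in Sdha was 0.94 (adjusted p = 0.182, SE 0.32), a 1.92-fold higher level, and DESeq2 called it at 1.04 (adjusted p = 0.0285, SE 0.32).

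Sdhb (chromosome 4, 140961203 to 140979193) was at 62.4, 44.1 and 41.6 CPM in microglia and at 115, 148, 147, 77.4 and 29.3 CPM in BMDM. Sdhc (chromosome 1, 171127165 to 171150603) was at 42.4, 37.1 and 26.1 CPM in microglia and at 59.4, 80.5, 96.2, 15.9 and 10.8 CPM in BMDM. BMDM 1 to 3 were above microglia in both genes. BMDM 5 was below microglia in both, and BMDM 4 was above in Sdhb and below in Sdhc. Over all libraries Sdhb was at 1.07 (adjusted p = 0.321, SE 0.47), while Sdhc was at 0.58 (adjusted p = 0.784, SE 0.60). With BMDM 1 to 3 alone 3 subunits were called higher: Sdha at 0.97 (adjusted p = 0.0215, SE 0.24), Sdhb at 1.48 (adjusted p = 0.00569, SE 0.27) and Sdhc at 1.17 (adjusted p = 0.0227, SE 0.29). The fourth subunit, Sdhd, was at 0.18 (adjusted p = 0.963, SE 0.75), with 3.23 to 13.3 CPM in microglia and 1.997 to 14.2 in BMDM.

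The regions before Sdha and Sdhb, the subunits of the catalytic head that were both called with BMDM 1 to 3 alone, are shown in the same way. Sdha is on the minus strand (chr13:74350281-74350490, 210 bases, with 14 CpG) and Sdhb on the plus strand (chr4:140961021-140961202, 182 bases, with 4 CpG). Both windows were also cut at the GENCODE start, so these CpG counts are not compared either. Neither holds a match to the 4 motifs, so both are in lower case.
Sdha: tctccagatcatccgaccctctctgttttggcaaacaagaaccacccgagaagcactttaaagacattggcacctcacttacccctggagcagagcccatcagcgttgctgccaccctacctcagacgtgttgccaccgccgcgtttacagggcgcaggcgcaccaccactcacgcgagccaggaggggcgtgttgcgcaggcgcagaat
Sdhb: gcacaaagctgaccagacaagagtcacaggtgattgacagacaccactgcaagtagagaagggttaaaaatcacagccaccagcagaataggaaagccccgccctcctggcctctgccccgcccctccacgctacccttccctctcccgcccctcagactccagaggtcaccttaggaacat
BMDM 5, where Sdhb was among the genes more than 4-fold below the median of the other BMDM libraries, had the highest Sdha of the 5 and the lowest Sdhb. Among BMDM 1 to 4, BMDM 4 was the lowest in both genes, at 53.2 CPM for Sdha and 77.4 for Sdhb.

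**Figure D3:**
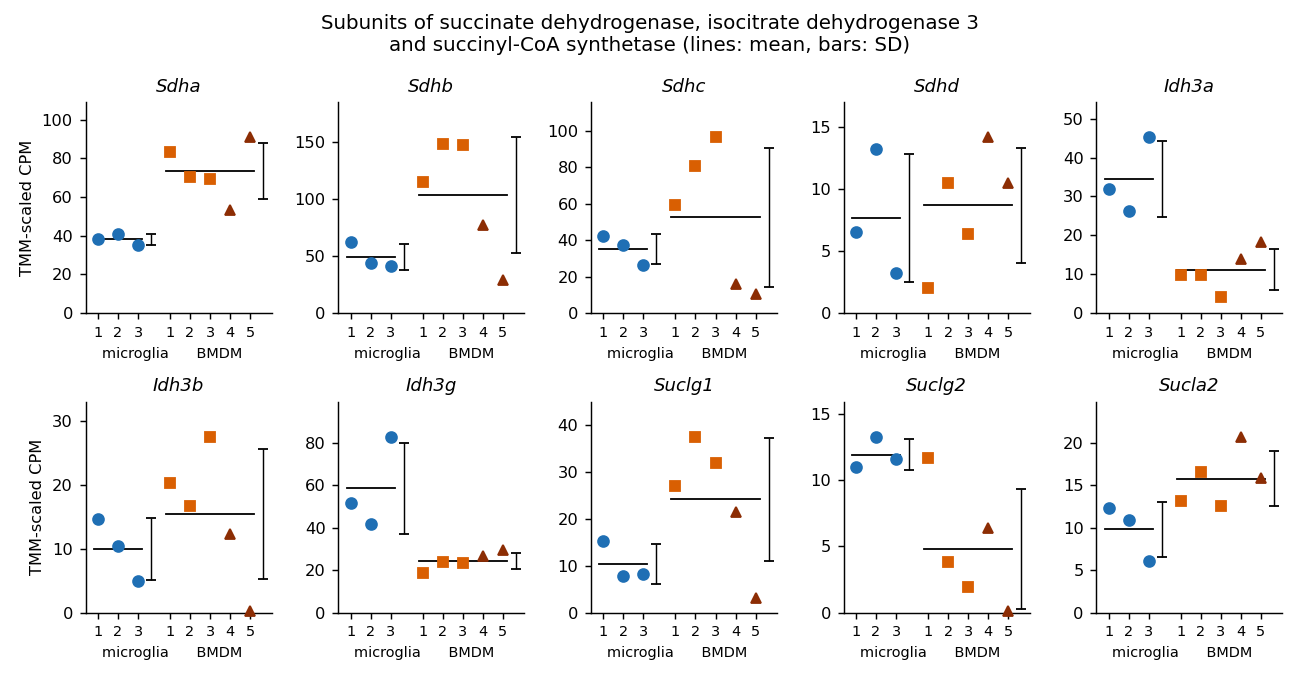
Level of each subunit gene of 3 enzymes in each library, in TMM-scaled CPM, with lines at group means and bars of 1 SD (n = 3 microglia, n = 5 BMDM). Sdha in BMDM lies at 53.2 to 90.8 CPM, above the 35.2 to 41.03 of microglia, while Idh3a and Idh3g lie below microglia and Idh3b and Sdhd overlap.

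The last steps of the cycle hydrate fumarate to malate (Fh1) and oxidize malate to oxaloacetate, in the mitochondrion (Mdh2) or the cytosol (Mdh1). Mdh2 was at 74.6, 63.97 and 91.00 CPM in microglia and at 76.2, 98.1, 80.9, 56.98 and 34.8 CPM in BMDM. Mdh1 was at 39.5, 35.1 and 22.5 CPM in microglia and at 38.9, 43.8, 37.5, 16.4 and 16.4 CPM in BMDM. The groups overlapped in both genes, with BMDM 4 and BMDM 5 the lowest of all 8 libraries. The differences were -0.14 for Mdh2 (SE 0.37, 95% interval -0.92 to 0.64) and -0.08 for Mdh1 (SE 0.42, 95% interval -0.98 to 0.82). Both were positive with BMDM 1 to 3 alone, at 0.17 and 0.31, and neither was called. Fh1 was at -0.66 (adjusted p = 0.8, SE 0.71), with 5.43 to 16.4 CPM in microglia and 2.55 to 12.8 in BMDM. The ratio of Mdh1 to Mdh2 counts differed between the groups by 0.04 on the log2 scale (exact two-sided permutation p = 0.929, also after adjustment). That of Mpc1 to Mpc2 counts differed by -1.20 (exact two-sided permutation p = 0.536, adjusted 0.804).

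Fatty acids pass into the mitochondrion through carnitine palmitoyltransferase 1, here Cpt1a, and are released from carnitine by Cpt2. Cpt1a, at the regulated step, was at 25.3, 17.6 and 23.03 CPM in microglia and at 24.6, 19.6, 19.6, 31.5 and 29.99 CPM in BMDM. The groups overlapped, with a difference of 0.19 (SE 0.37, 95% interval -0.61 to 0.98). It was -0.04 with BMDM 1 to 3 alone. Cpt2 was at -0.13 (adjusted p = 0.98, SE 0.99), with 1.89 to 6.10 CPM in microglia and 1.73 to 7.004 in BMDM.

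The first step of beta-oxidation is split by chain length among acyl-CoA dehydrogenases, and the genes of the very long and long chain enzymes had values of opposite sign. Acadvl (very long chain, chromosome 11, 70010183 to 70015411) was at 10.9, 5.73 and 7.79 CPM in microglia and at 23.6, 20.3, 23.7, 19.3 and 16.2 CPM in BMDM. Acadl (long chain) was at 54.5, 69.1 and 48.7 CPM in microglia and at 42.7, 28.1, 35.2, 51.4 and 27.8 CPM in BMDM. Every BMDM library was above microglia in Acadvl. In Acadl all BMDM libraries but BMDM 4 were below. The difference in Acadvl was 1.34 (adjusted p = 0.169, SE 0.45), or 2.53-fold. It was called by DESeq2 (adjusted p = 0.029) and with BMDM 1 to 3 alone, at 1.47 (adjusted p = 0.0218, SE 0.37). Acadl was at -0.63 (adjusted p = 0.446, SE 0.33).

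The log2 ratio of Acadl to Acadvl counts was 2.32, 3.58 and 2.64 in microglia and 0.86, 0.47, 0.57, 1.41 and 0.78 in BMDM. It did not overlap between the groups, and the means were 2.85 ± 0.65 (SD, n = 3) and 0.82 ± 0.37 (n = 5). The difference of -2.03 had an exact two-sided permutation p of 0.0179, the smallest that 56 assignments of 3 and 5 libraries can give, and 0.107 after adjustment over the 6 ratios. With these libraries, 1 ratio alone could not reach an adjusted p under 0.05, so the value of 0.107 does not decide the question. Exons of Acadvl share 1151 bases with Dvl2 on the opposite strand, and the strand setting used in counting was not given in the sources used here. Dvl2, which encodes a Wnt signaling protein, was at 0.05 (adjusted p = 0.985, SE 0.43). Acadm, the medium chain enzyme, was at -0.03 (SE 0.40, 95% interval -0.89 to 0.82), with 14.1 to 23.97 CPM in microglia and 14.5 to 25.1 in BMDM.

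Electrons from these dehydrogenases go to the electron transfer flavoprotein, made of Etfa and Etfb, and through its oxidoreductase Etfdh to ubiquinone. None of the 3 genes was called. Etfa was at -0.46 (adjusted p = 0.859, SE 0.66), with 11.7 to 13.9 CPM in microglia and 1.94 to 17.4 in BMDM. Etfb was at -0.52 (adjusted p = 0.719, SE 0.44) and ranged from 23.2 to 62.9 CPM in microglia and from 15.3 to 43.8 in BMDM. Exons of Etfb share 617 bases with Gm45233 on the same strand, which held 0 counts. How reads on such bases were counted was not given in the sources used here. Etfdh, at 0.45 (adjusted p = 0.832, SE 0.56), stood at 30.96 CPM in BMDM 5 and 6.86 to 13.3 in the other BMDM libraries, and the difference was 0.00 with BMDM 1 to 3 alone.

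**Figure D4:**
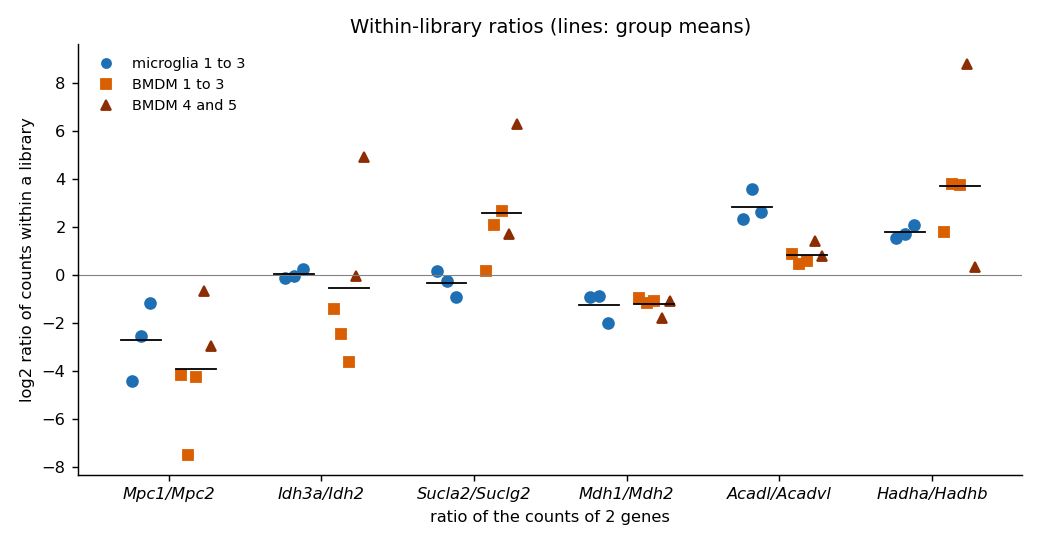
Log2 ratio of the counts of 2 genes within each library for the 6 ratios, with lines at the group means; circles are microglia, squares BMDM 1 to 3 and triangles BMDM 4 and 5. Acadl/Acadvl lies between 2.32 and 3.58 in microglia and between 0.47 and 1.41 in BMDM, and the other ratios except Sucla2/Suclg2 overlap between the groups.

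The later steps for long chains are carried out by the trifunctional protein, of which Hadha and Hadhb encode the alpha and beta subunits. Hadha was at 59.9, 47.6 and 52.3 CPM in microglia and at 54.9, 57.3, 65.8, 35.5 and 40.1 CPM in BMDM. Hadhb was at 20.5, 14.6 and 12.3 CPM in microglia and at 15.98, 4.06, 4.80, 0 and 31.8 CPM in BMDM. The count of 0 in BMDM 4 allows up to 0.478 CPM, by counting error alone. The difference in Hadha was -0.07 (SE 0.33, 95% interval -0.77 to 0.63). Hadhb had both the lowest and the highest of all 8 libraries within BMDM, and its difference was -0.48 (adjusted p = 0.91, SE 0.97). The value was -0.93 with BMDM 1 to 3 alone, -1.91 by limma-voom, -1.33 without BMDM 5 and -0.22 without BMDM 4.

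These genes lie head to head on chromosome 5, Hadha on the minus strand and Hadhb on the plus strand, with 85 bases between their GENCODE starts (chr5:30155163-30155247, with 9 CpG). The plus strand is shown because both genes start at its ends, and it holds none of the 4 motifs.
Hadha and Hadhb: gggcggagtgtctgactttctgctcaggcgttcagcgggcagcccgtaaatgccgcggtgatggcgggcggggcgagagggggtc
The log2 ratio of Hadha to Hadhb counts was 1.55, 1.70 and 2.08 in microglia and 1.78, 3.80, 3.76, 8.80 and 0.33 in BMDM. The BMDM libraries lay on both sides of the microglia range, with an exact two-sided permutation p of 0.375 (0.75 adjusted). The processed pseudogenes Gm13910 and Gm9108 match the last 500 bases of Hadhb transcripts at 97% identity or more over at least 75 bases, and settings for reads shared with such copies were not given in the sources used here.

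Eci1 (chromosome 17, 24426641 to 24439348), an isomerase that moves the double bond of unsaturated fatty acids so that oxidation can go on, was at 13.4, 14.6 and 14.4 CPM in microglia. In BMDM it was at 5.73, 5.42, 4.35, 0 and 3.73 CPM. All BMDM libraries lay below the narrow microglia range, and the difference in Eci1 over all libraries was -1.87 (adjusted p = 0.379, SE 0.90). It was called lower with BMDM 1 to 3 alone, at -1.44 (adjusted p = 0.0409, SE 0.42). The last 500 bases of Eci1 transcripts match Utp11 at 97.5% identity over 80 bases. Utp11 held 2867 counts against 681 for Eci1, and was at 40.2 to 44.2 CPM in microglia and 26.8 to 37.5 in BMDM, every BMDM library below microglia. Decr1, a reductase that serves unsaturated fatty acids as well, was at -0.42 (adjusted p = 0.841, SE 0.54), with 12.01 to 13.9 CPM in microglia and 5.99 to 14.99 in BMDM. Acaa2, the thiolase of the last step, was at -0.41 (adjusted p = 0.899, SE 0.75). It held 2 counts in BMDM 4, at 0.318 CPM, against 8.43 to 21.4 in the other BMDM libraries.

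Around these enzymes, 108 further genes of the pathways were read from the same fit, of which 93 passed the filter. Of the 93, 1 was higher, Nr1h3, and 1 lower, Cd36, near the 1.11% and 0.814% of all genes. Cd36, a scavenger receptor that takes up long chain fatty acids (chromosome 5, 17781690 to 17888801), was at 28.9, 34.5 and 38.6 CPM in microglia and at 12.1, 6.40, 10.1, 10.5 and 6.91 CPM in BMDM. It fell by 1.88 (adjusted p = 0.0222, SE 0.39), or 3.69-fold, with no overlap of libraries. Nr1h3, which encodes the oxysterol receptor LXR alpha (chromosome 2, 91184061 to 91202834), was at 2.21, 0.101 and 1.001 CPM in microglia and at 25.7, 19.5, 48.6, 35.7 and 11.6 CPM in BMDM, and microglia 2 held 1 count of it. It rose by 4.60 (adjusted p = 0.00758, SE 0.80), and every BMDM library was above every microglia library. The call of Cd36 was lost without any 1 of microglia 1, 2 or 3 (adjusted p = 0.0923, 0.12 and 0.135) or without BMDM 2 or BMDM 3 (0.0563 and 0.0546). That of Nr1h3 was lost without microglia 3 (0.0609) and by limma-voom (0.07), and the value was 5.65 without microglia 1 and 4.05 without microglia 2.

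Of the 20 measured other TCA and anaplerotic genes, 0 were called. Sdhaf4, an assembly factor of succinate dehydrogenase that acts on Sdha, was at 38.1, 34.9 and 47.6 CPM in microglia and at 15.2, 17.98, 17.2, 14.2 and 13.8 CPM in BMDM. Every BMDM library was below every microglia library, opposite in sign to Sdha, and the difference in Sdhaf4 of -1.36 (adjusted p = 0.0571, SE 0.34) was not called, except by DESeq2 (adjusted p = 0.0139) and without BMDM 5 (0.0225), among other settings. Me2, a mitochondrial malic enzyme, was at -1.18 (adjusted p = 0.326, SE 0.52). Of the 8 measured genes of pyruvate dehydrogenase regulation and assembly, 0 were called, with Lias, lipoic acid synthase, at -0.63 (adjusted p = 0.627, SE 0.44), Pdk1 at -0.27 and Pdpr at -0.10. With BMDM 1 to 3 alone, Sdhaf4 (-1.24, adjusted p = 0.0136) and Lias (-1.17, adjusted p = 0.0139) were called lower.

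Among the 15 measured genes of fatty acid uptake and activation 1 was called, Cd36. Fabp5, a lipid chaperone, was at 36.8, 60.1 and 22.1 CPM in microglia and at 593, 949, 116, 22.6 and 44.4 CPM in BMDM. BMDM 1 to 3 were above microglia and BMDM 4 and BMDM 5 within their range, and the difference in Fabp5 of 3.12 (adjusted p = 0.177, SE 1.05) became 3.81 (adjusted p = 0.00482, SE 0.67) with BMDM 1 to 3 alone. Acsl3, a fatty acid activating enzyme, was at -1.14 (adjusted p = 0.275, SE 0.47), or -1.52 (adjusted p = 0.0321, SE 0.42) with BMDM 1 to 3 alone. In that fit Acsl4, of the same family, was also lower at -1.25 (adjusted p = 0.00994, SE 0.26), and the lipid chaperone Fabp4 was higher at 3.60 (adjusted p = 0.0102, SE 0.75), both named after their values were seen. Fabp4 was at 0.637 and 0.415 CPM in BMDM 4 and BMDM 5, and was not called with all libraries (2.86, adjusted p = 0.365, SE 1.35). Fabp3, of the family of Fabp4 and Fabp5, had the opposite sign, at -3.38 (adjusted p = 0.301, SE 1.43). It was at 5.52 to 9.66 CPM in microglia and 0 to 2.40 in BMDM, and was called lower by limma-voom only. Of the 9 measured mitochondrial carriers 0 were called. Slc25a20, which brings acylcarnitine in, was at 16.4, 20.7 and 14.2 CPM in microglia and at 38.6, 25.1, 49.8, 33.3 and 36.5 CPM in BMDM. There was no overlap of libraries, and the difference in Slc25a20 of 1.10 (adjusted p = 0.174, SE 0.37) was called by DESeq2 (adjusted p = 0.0394) and with BMDM 1 to 3 alone, at 1.15 (adjusted p = 0.0395, SE 0.33). Slc25a4, which exchanges ADP and ATP, was at -1.06 (adjusted p = 0.295, SE 0.45), and Slc25a11, which carries 2-oxoglutarate, at 0.54.

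Of 13 measured further mitochondrial beta-oxidation genes and 9 peroxisomal ones, 0 were called. Ivd, Hsd17b10 and Echs1 were at -0.88, 0.87 and -0.51, and with BMDM 1 to 3 alone Ivd, which acts in leucine breakdown, was called lower at -1.38 (adjusted p = 0.0479, SE 0.42). Abcd2, a peroxisomal importer of very long chain acyl-CoA, was at 17.7, 15.4 and 18.6 CPM in microglia and at 2.40, 5.54, 1.94, 0.637 and 3.04 CPM in BMDM. The groups had no overlap, and the difference in Abcd2 was -2.66 (adjusted p = 0.0747, SE 0.70). It was called lower by DESeq2 (adjusted p = 0.00947), without BMDM 5 (0.0356) and with BMDM 1 to 3 alone, at -2.37 (adjusted p = 0.0109, SE 0.50). Scp2, with a peroxisomal thiolase form, was at 1.03 (adjusted p = 0.436, SE 0.54), and Acox3, a peroxisomal acyl-CoA oxidase, at -0.63 (adjusted p = 0.538, SE 0.38).

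**Figure D5:**
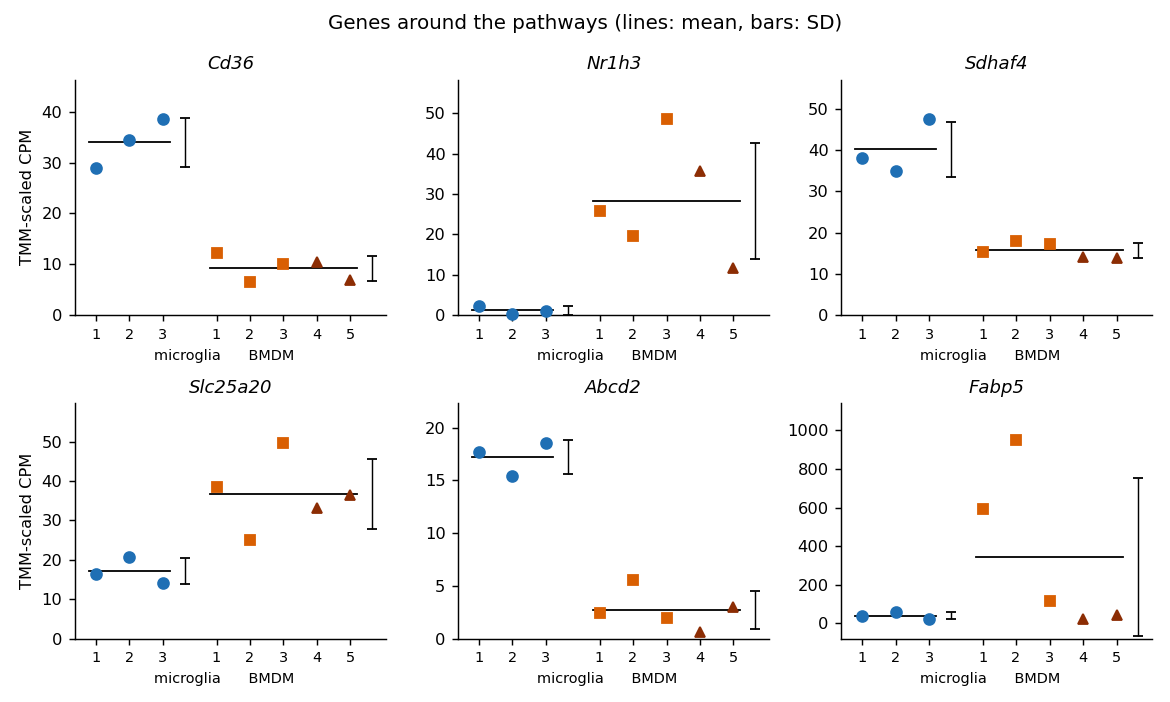
Level of 6 genes around the pathways in each library, in TMM-scaled CPM, with lines at group means and bars of 1 SD (n = 3 microglia, n = 5 BMDM). Cd36, Sdhaf4 and Abcd2 lie lower and Nr1h3 and Slc25a20 higher in every BMDM library than in any microglia library, and Fabp5 is high in BMDM 1 to 3, at 116 to 949 CPM.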

How the data were processed

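The data are raw read counts per gene, deposited by the authors as 1 table for 8 libraries, made from QuantSeq 3′ FWD libraries, which read the 3′ ends of transcripts, per the labels' protocols. FastQC, cutadapt, STAR, featureCounts and DESeq2 are named in the submitters' processing notes, with the mm10 build and no settings. The test was edgeR 4.0.16 (R 4.3.3) after filterByExpr (minimum count 10, minimum total 15), with TMM factors and robust quasi-likelihood fits. DESeq2 1.42.0 and limma 3.58.1 (voom) were alternatives, as were RLE factors, no filter on low counts, a stricter one (10 CPM or more in 3 libraries), a replicate block, BMDM 1 to 3 alone, no Gm42418 or mitochondrial rRNA, and each library left out. The threshold was an adjusted p of 0.05 over all genes tested. Ratios used counts plus 0.5 and an exact two-sided permutation test over libraries. The genes and lists were chosen with earlier results of these data known. By rule, values in every library were given for genes with an unadjusted p under 0.05, those called with BMDM 1 to 3 alone, ratio members and the highest gene of each step. Other pathway genes were named where called, and otherwise the 3 with the smallest p per list at a mean of 5 CPM or more, except 1 gene that is not reported here. In simulated counts for BMDM minus microglia over 14694 genes, edgeR recovered 2% of log2 folds of 1, 34% of 2, 70% of 3 and 85.7% of 4. Of its 101 calls there 6 were false. The changed genes were drawn at random from those at 5 CPM or more, each gene simulated on its own. In the data the median SE was 0.47 for the 36 enzyme genes and 0.85 for all genes tested. The shares recovered are therefore not those of the enzyme genes. Within each group, every pair of libraries differed beyond sampling noise. Positions are from GENCODE M21 (GRCm38).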

Additional observations from a re-analysis of the deposited data

Results flagged for a closer look

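Each of the 36 genes was checked for a BMDM library far from the other 4, and 2 had one, where chance gives about 1 in 20 groups. Mpc1 was at 15.8 CPM in BMDM 4, against 0.369 to 3.59 in the other BMDM libraries. Etfdh was at 31.0 CPM in BMDM 5, against 6.86 to 13.3.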

How the results depend on the processing

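Leaving out 1 library, the number of genes called higher ran from 58 (without microglia 3) to 536 (without BMDM 5) and of those called lower from 46 to 602. It was 601 and 313 by DESeq2, 403 and 318 without a filter, 1028 and 1312 with BMDM 1 to 3 alone, and 250 lower by limma-voom. Of the 36 enzyme genes, 2 were higher and 1 lower by DESeq2, 6 and 3 with BMDM 1 to 3 alone, 1 lower (Idh3g) under the stricter filter, where 1.75% of all genes were, and 0 to 2 each way with 1 library left out. Of the other pathway genes, 3 were higher and 3 lower by DESeq2 (3.65% and 1.90% of all genes), 0 and 2 by limma-voom (0.856% and 1.52%), 4 and 12 with BMDM 1 to 3 alone (6.35% and 8.11%), 2 lower under the stricter filter, and 0 to 1 higher and 0 to 9 lower with 1 library left out. The median of the 36 ran from -0.24 to -0.01.

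With the replicate number as a block, over microglia 1 to 3 and BMDM 1 to 3, 1477 genes were higher and 1767 lower (9.13% and 10.9%), 6 and 3 of the enzyme genes, and 5 and 12 of the other pathway genes. Same-numbered libraries had correlations of 0.137, 0.0903 and 0.238 of their deviations from group means, so the numbers are not taken to pair them. Each library correlated best with its own number, a hint from the data and not the design.

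Signs that turned belong to genes that were not called. With BMDM 1 to 3 alone, and then with the block, Acaa2 was at 0.12 and 0.10, Cpt1a at -0.038 and -0.029, Hadha at 0.17 and 0.17, Idh2 at 0.43 and 0.37, Mdh1 at 0.31 and 0.36, Mdh2 at 0.17 and 0.17, Mpc1 at -0.96 and -1.11, and Sdhd at -0.28 and -0.33. Etfdh was at -0.00067 with BMDM 1 to 3 alone. Acadm was at 0.056 by DESeq2, 0.057 with RLE factors and 0.061 under the stricter filter, and at 0.030 without Gm42418 and mitochondrial rRNA. In the first 3 of these settings Hadha was at 0.029, 0.029 and 0.040 and Mdh1 at 0.026, 0.026 and 0.036, and Idh3b at -0.19 by limma-voom. With 1 library left out, values ran from -0.29 to 0.15 for Acadm, -0.0041 to 0.29 for Cpt1a, -0.57 to 0.15 for Cpt2, -0.50 to 0.015 for Dld, -0.0058 to 0.67 for Etfdh, -0.18 to 0.023 for Hadha, -0.49 to 0.16 for Idh2, -0.34 to 0.076 for Mdh1, -0.29 to 0.032 for Mdh2, -0.73 to 0.85 for Mpc1, -0.54 to 0.17 for Ogdh and -0.27 to 0.76 for Sdhd. The ratios Idh3a/Idh2 and Mdh1/Mdh2 ran from -1.92 to 0.21 and from -0.33 to 0.24. The cause of these changes was not tested. Counts of 0 to 4 in BMDM 4 and BMDM 5 limit Hadhb, Eci1, Acaa2, Idh2, Idh3b and Suclg2.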

Other observations

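Of 19 measured genes listed as regulators of oxidative metabolism, 12 had a positive and 7 a negative value with all libraries. Nr1h3, of the oxysterol receptor, was the 1 called. Sirt3, a mitochondrial deacetylase, was at 1.07 (adjusted p = 0.462, SE 0.58). With BMDM 1 to 3 alone 4 were lower, where 8.11% of all genes were called lower, and they are named here after their values were seen. The corepressor Nrip1 was at 167, 216 and 309.8 CPM in microglia and 59.4, 51.96, 59.6, 143 and 242 in BMDM, and its value was -2.00 (adjusted p = 0.00195, SE 0.28), against -1.06 (adjusted p = 0.367, SE 0.50) with all libraries. The corepressor Ncor1 was at 282, 311 and 372 CPM and 154, 126, 132, 209 and 407 CPM, with -1.21 (adjusted p = 0.0108, SE 0.26), against -0.65 over all libraries. Gabpa, a subunit of the GABP factor, was at 17.1, 21.8 and 15.8 CPM and 6.66, 6.03, 4.80, 6.37 and 30.7 CPM, with -1.63 (adjusted p = 0.0173, SE 0.38), against -0.74. The coactivator Pprc1 was at 20.9, 12.2 and 10.5 CPM and 2.53, 3.94, 5.03, 34.9 and 17.7 CPM, with -1.91 (adjusted p = 0.0274, SE 0.50), against -0.18. In BMDM 5 each of the 4 was above BMDM 1 to 3, and with all libraries none was called.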
